A study of Mus musculus with 20 samples.

Results

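E14-mES and GFPoct4, 2 groups of mouse embryonic stem (ES) cell arrays, were set against sFB-protein-iPS and C57-mES on the same type of Illumina bead array. A gene was kept, and is called a split gene here, where both group means of one pair exceeded both means of the other pair by at least 1 log2 unit, which is a factor of 2. Of 16593 genes measured 289 met this rule (1.74%). Of these, 176 were higher in E14-mES and GFPoct4 (1.06%) and 113 were lower (0.681%). The split genes were thus chosen by the group means of these 16 arrays, so every difference between the pairs given below describes the chosen genes and carries no test. The lower mean of the high pair minus the higher mean of the low pair is called the gap, and it is written as negative where E14-mES and GFPoct4 were lower.

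The titles call E14-mES and C57-mES mouse ES cells, and the source field calls sFB-protein-iPS mouse induced pluripotent stem (iPS) cells, somatic cells returned to an ES-like state. GFPoct4 is an ES cell only by its source and cell type fields. The labels do not say what GFPoct4, sFB or protein stand for, and they give no passage, medium, sex or age. C57 and FVB in the titles are names of mouse strains, so the groups may differ in genetic background. The part of strain in the split was not tested. The fifth group, FVB-sFB, carries the ES cell label in the same fields although the series title speaks of skin fibroblasts. Each group had 4 arrays of 500 ng total RNA each, and nothing states that these were separate cultures, so p-values measure only the spread between arrays.

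Mouse ES and iPS cells keep a network of transcription factors, among them Pou5f1, Nanog and Sox2, that holds them in a self-renewing state. Within that state cell lines can still differ in signalling, in metabolism and in small subpopulations, and fibroblast growth factor signals through the ERK kinases push the cells towards leaving it. The hypoxia pathway, which induces glycolytic enzymes through the factor HIF1, and the metal response, which induces metallothioneins, are general responses of these and other cells.

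All 4 groups expressed the markers of pluripotent cells. Of 23 measured genes of the pluripotency network 21 lay above background on all arrays in each of the 4 groups, and the summed normalized intensity of the 23 was 168142 to 210746, against 4609 to 5466 in FVB-sFB. Only Tdgf1 of these 23 was a split gene. Pou5f1 averaged 13.68 in E14-mES and 13.89 in GFPoct4, against 13.51 in sFB-protein-iPS and 13.7 in C57-mES, and Nanog 12.65 in E14-mES and 12.81 in GFPoct4, against 12.83 in sFB-protein-iPS and 12.46 in C57-mES. Sox2 (11.08 in E14-mES and 11.32 in GFPoct4, against 11.77 in sFB-protein-iPS and 11.71 in C57-mES), Klf4 (10.17 in E14-mES and 10.98 in GFPoct4, against 11.01 in sFB-protein-iPS and 10.22 in C57-mES) and Myc (7.05 in E14-mES and 6.75 in GFPoct4, against 7.28 in sFB-protein-iPS and 6.83 in C57-mES) were not split either. All these are normalized log2 intensities. In FVB-sFB the means were 6.84 for Pou5f1, 6.38 for Nanog and 6.76 for Sox2. The summed intensity of 18 fibroblast markers was 3115 to 3373 in E14-mES and 9997 to 10766 in GFPoct4, against 4062 to 4353 in sFB-protein-iPS and 4846 to 4916 in C57-mES, an order that does not follow the pairs. It was 123090 to 140856 in FVB-sFB. No fibroblast marker was a split gene.

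Over all genes the group means of E14-mES and GFPoct4 correlated at 0.985 and those of sFB-protein-iPS and C57-mES at 0.974, while the 4 correlations across the pairs were 0.963 to 0.968. These correlations run across genes, which are not independent replicates. Both ends of the raw scale moved with the pairs. The dimmest raw intensity was 55.5 to 68.4 in E14-mES and GFPoct4, against 44 to 50.2 in sFB-protein-iPS and C57-mES, without overlap. The brightest raw intensity was 58519 to 63254 on the 8 arrays of E14-mES and GFPoct4, against 45509 to 52180 on the 8 arrays of sFB-protein-iPS and C57-mES, without overlap. Raw medians were 114 to 179 in the first pair, against 94.4 to 128 in the second, which overlap, and the highest belonged to E14-mES array 4. No slide or scan is recorded, so a batch shared by 2 groups cannot be told apart from the split. After background correction and quantile normalization 48.2% to 53.5% of probes lay above the background level of their array in the 4 groups. The cut for this was set on each array so that 95% of 1305 olfactory and vomeronasal receptor probes, genes of sensory neurons, fell under it.

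On single arrays, all 8 values of the high pair lay above all 8 of the low pair for 173 of the 176 genes higher in E14-mES and GFPoct4, the exceptions being Gng5, Hspe1 and Ndufb4. The same held for 113 of the 113 lower genes. The rule itself nearly fixes this. Among all genes 7.64% were separated in this way as higher and 5.85% as lower. The median gap was 1.21 for the higher genes, with a largest gap of 2.13 for Stmn1, and 1.2 in size for the lower genes, with a largest of 2.81 for Nppb. A gap of at least 1.5 was seen in 35 higher and 21 lower genes. All 289 lay above background on all 8 arrays of the high pair. In the low pair 28 of the higher and 7 of the lower genes had a group with no array above background, and their folds are lower bounds written as at least. Just inside the threshold were Slc39a10, Ndufb4 and Nedd4 on the higher side, and just outside it Mindy3, Cox7b and Srp14. On the lower side Fam83g, Snrnp35 and Mrps18a were just inside, and Plk3, Timm50 and Rif1 just outside. All 12 gaps round to 1 or -1.

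The widest gap among the higher genes belonged to Stmn1 on chromosome 4, which encodes stathmin, a protein that destabilizes microtubules. In bulk RNA, fewer expressing cells and less RNA per cell cannot be told apart. Stmn1 read 10.69, 10.82, 10.64 and 9.98 on the E14-mES arrays and 10.84, 11.24, 11.49 and 11.48 on the GFPoct4 arrays, against 8.5, 8.43, 8.41 and 8.28 on the sFB-protein-iPS arrays and 7.97, 7.41, 7.33 and 7.53 on the C57-mES arrays. The E14-mES and GFPoct4 arrays all lay above the others, by 7.55-fold in the pair means, and the groups within each pair also stood apart from each other. Tfrc on chromosome 16, the transferrin receptor that carries iron into cells, read 13.94, 13.9, 13.94 and 14.86 on the E14-mES arrays and 13.9, 13.62, 13.81 and 13.98 on the GFPoct4 arrays, against 11.5, 11.36, 11.42 and 11.29 on the sFB-protein-iPS arrays and 11.82, 11.9, 11.77 and 11.71 on the C57-mES arrays. The pairs did not overlap, and E14-mES array 4 was the brightest of all. The pair means differed 5.26-fold, and FVB-sFB averaged 9.87 ± 0.32 (SD, n = 4), below both pairs.

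Aldh6a1, a mitochondrial enzyme of valine breakdown, averaged 10.65 ± 0.17 in E14-mES and 10.64 ± 0.17 in GFPoct4, against 8.57 ± 0.18 in sFB-protein-iPS and 8.15 ± 0.15 in C57-mES (SD, n = 4 each), a 4.89-fold difference of the pairs. Atp5a1, the alpha subunit of the mitochondrial ATP synthase, averaged 11.61 ± 0.11 in E14-mES and 11.83 ± 0.13 in GFPoct4, against 9.26 ± 0.07 in sFB-protein-iPS and 9.58 ± 0.21 in C57-mES (4.94-fold). It was the only split gene among 22 measured genes of oxidative phosphorylation. The mitochondrial enzyme gene Idh2, chosen after its values were seen, averaged 12.05 in E14-mES and 12.24 in GFPoct4, against 10.42 in sFB-protein-iPS and 9.84 in C57-mES. Slc52a3, a riboflavin transporter, was 5.46-fold higher in E14-mES and GFPoct4, and Slc23a2, which carries vitamin C, was 4.74-fold higher. Napepld, an enzyme of lipid mediators, was 3.91-fold higher in the pair means.

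Smc3, a core subunit of the cohesin ring that holds sister chromatids together, averaged 10.59 ± 0.08 in E14-mES and 10.47 ± 0.18 in GFPoct4, against 8.23 ± 0.12 in sFB-protein-iPS and 8.48 ± 0.13 in C57-mES (4.53-fold). Robo4, a receptor known from endothelium, averaged 9.25 ± 0.42 in E14-mES and 8.94 ± 0.06 in GFPoct4, against 6.87 ± 0.21 in sFB-protein-iPS and 6.92 ± 0.06 in C57-mES (4.58-fold), and 3 of the 4 sFB-protein-iPS arrays lay above background. Summed intensity of 10 endothelial markers was 3139 to 3966 in E14-mES and 2939 to 3131 in GFPoct4, against 2189 to 2299 in sFB-protein-iPS and 2440 to 2613 in C57-mES. It thus moved with the pairs, although none of the 10 was a split gene, and its part in these results was not tested. Vps26b, a part of the retromer that sorts membrane proteins, was 4.34-fold higher. Pcmtd2 was at least 3.06-fold higher, with none of the 8 arrays of the low pair above background, and Cfap20dc was 3.93-fold higher. The last of the 14 largest gaps on this side were those of Bmpr1a, described with the signalling genes, and Ankrd46 (3.93-fold).

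**Figure D1:**
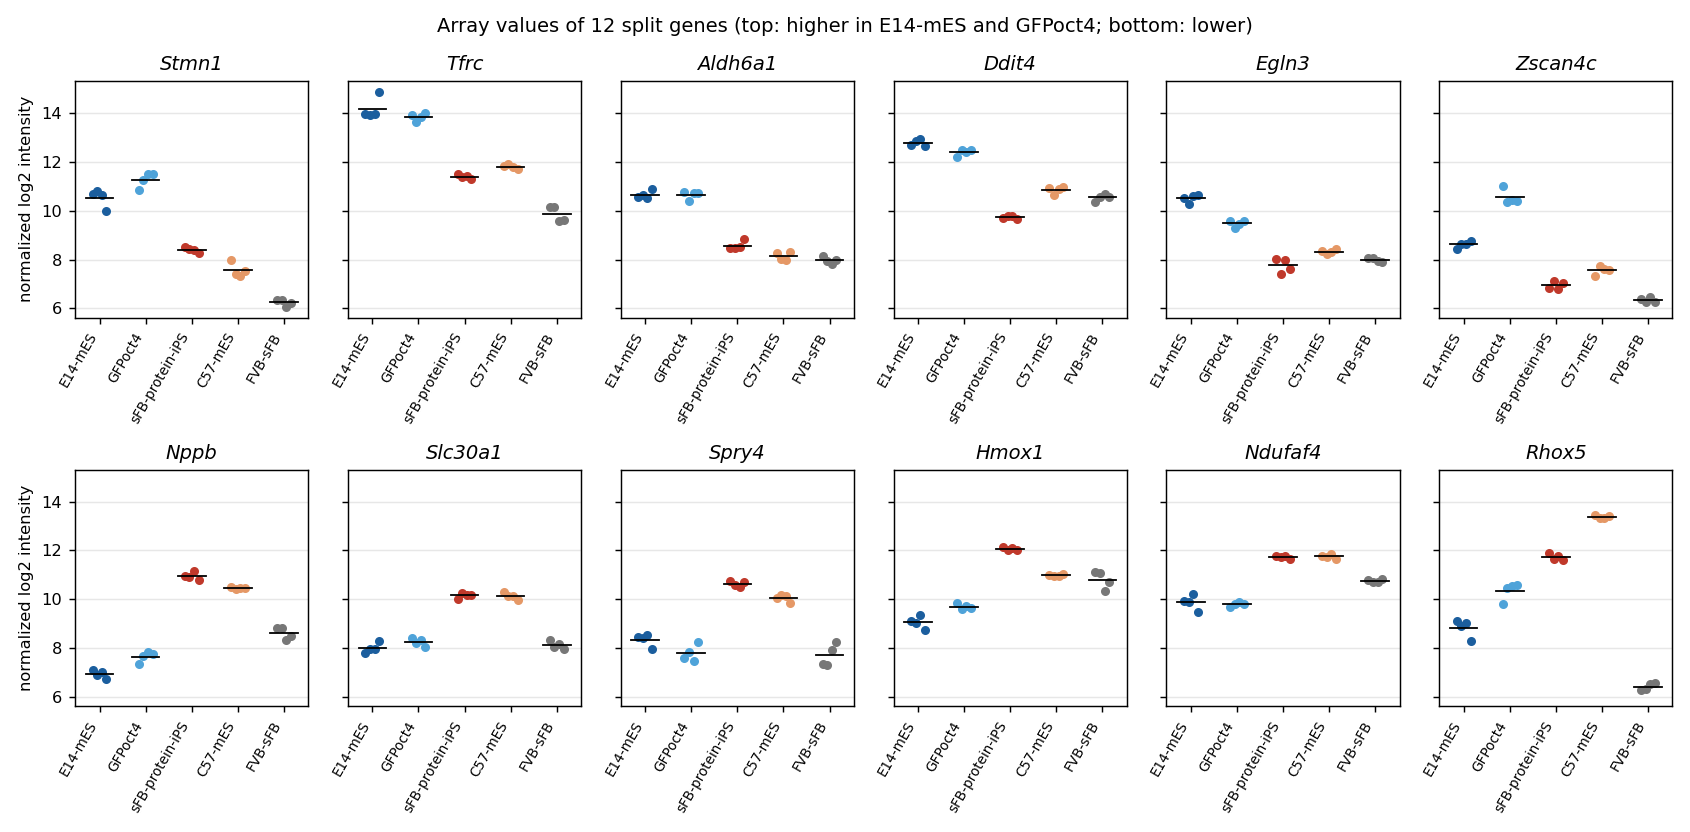
Normalized log2 intensity of 12 split genes on each of the 20 arrays, with groups along the horizontal axis, 1 point per array and a bar at the group mean. The top row holds genes higher in E14-mES and GFPoct4 and the bottom row genes lower there, and in each panel the 8 arrays of one pair lie above the 8 of the other. FVB-sFB is with the low pair for Stmn1 (mean 6.25) and Rhox5 (mean 6.43) and between the pairs for Nppb (mean 8.62) and Ndufaf4 (mean 10.75).

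Genes of glycolysis and hypoxia gave 6 split genes, all higher in E14-mES and GFPoct4, more than any other of 36 gene lists when each gene was read on its brightest probe. With the mean of all probes of a gene 2 of the 6 stayed split, Ddit4 and Ndrg1, beside 3 each in the lists of FGF and ERK feedback, germ line and interferon genes. The list has 31 measured genes, 28 of them above background on all arrays of at least 1 of the 4 groups, and 0 were split as lower. In the fit across all genes 7 of the 31 passed an adjusted p under 0.05 and a 2-fold difference as higher, the 6 and Ldha, where 2.78% of all genes passed as higher and 2.1% as lower. Their median difference of the pairs was 0.58 on the log2 scale, beside -0.01 for all genes. The rule chose genes on this same contrast, so these counts are a description. Ddit4 on chromosome 10, an inhibitor of mTOR signalling induced by hypoxia and other stress, had the widest gap of the 6. It read 12.69, 12.83, 12.91 and 12.65 on the E14-mES arrays and 12.2, 12.47, 12.41 and 12.48 on the GFPoct4 arrays, against 9.71, 9.8, 9.79 and 9.65 on the sFB-protein-iPS arrays and 10.91, 10.63, 10.89 and 10.96 on the C57-mES arrays. The pairs did not overlap (4.89-fold), and the 2 groups of the low pair did not overlap each other. Egln3 on chromosome 12, an oxygen-sensing prolyl hydroxylase that is itself a HIF target, read 10.5, 10.29, 10.58 and 10.65 on the E14-mES arrays and 9.59, 9.29, 9.44 and 9.59 on the GFPoct4 arrays, against 8.03, 7.43, 7.99 and 7.61 on the sFB-protein-iPS arrays and 8.34, 8.23, 8.3 and 8.43 on the C57-mES arrays. The 4 groups lay in 4 separate ranges, E14-mES highest (3.85-fold between the pairs).

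Ndrg1, a hypoxia-induced gene of growth arrest, averaged 9.62 ± 0.15 in E14-mES and 9.67 ± 0.12 in GFPoct4, against 8.22 ± 0.12 in sFB-protein-iPS and 8.15 ± 0.18 in C57-mES (SD, n = 4 each). Pfkp, the platelet form of phosphofructokinase and an entry step of glycolysis, averaged 13.26 ± 0.43 in E14-mES and 12.41 ± 0.23 in GFPoct4, against 10.85 ± 0.07 in sFB-protein-iPS and 11.18 ± 0.1 in C57-mES. Another detected Pfkp probe averaged 10.56 in E14-mES and 9.55 in GFPoct4, against 9.42 in sFB-protein-iPS and 9.67 in C57-mES. On that probe the group means of the pairs overlapped, with E14-mES alone standing out. Tpi1, triosephosphate isomerase, averaged 14.69 in E14-mES and 14.48 in GFPoct4, against 12.72 in sFB-protein-iPS and 13.4 in C57-mES, and Vegfa, the angiogenic growth factor, 10.43 in E14-mES and 10.62 in GFPoct4, against 9.43 in sFB-protein-iPS and 9.2 in C57-mES. These last 2 fell outside the rule for named genes and were added after their values were seen. The Vegfa gap of 1 became 0.85 without E14-mES array 4, and another detected Vegfa probe differed by 0.21 between the pair means, where the probe used here differed by 1.21. With the mean of probes the gap was 0.28 for Vegfa, 0.73 for Tpi1, 0.41 for Pfkp and 0.55 for Egln3, all under 1. The other Egln3 probe was not detected, so for that gene the mean gives no second reading. Pdk1, a detected hypoxia target, differed by 0.6 between the pair means and was not split. The Bnip3 probe was above background on 0 arrays, and that of Car9 on only some arrays of E14-mES, GFPoct4 and sFB-protein-iPS, so no difference could be measured for Bnip3 and hardly one for Car9. Vhl, which marks HIF for destruction and was also chosen after its values were seen, was itself higher, at 8.61 in E14-mES and 8.73 in GFPoct4, against 6.99 in sFB-protein-iPS and 6.56 in C57-mES.

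To show the sequence next to these genes, RefSeq promoters of the build GRCm38.p6 around the transcription start are given for Pfkp, Egln3 and Ddit4, whose windows held the core of the hypoxia response element. Capitals mark every ACGTG or GCGTG on either strand, which were the letters searched.
Pfkp (chr13:6648722-6649021, minus strand): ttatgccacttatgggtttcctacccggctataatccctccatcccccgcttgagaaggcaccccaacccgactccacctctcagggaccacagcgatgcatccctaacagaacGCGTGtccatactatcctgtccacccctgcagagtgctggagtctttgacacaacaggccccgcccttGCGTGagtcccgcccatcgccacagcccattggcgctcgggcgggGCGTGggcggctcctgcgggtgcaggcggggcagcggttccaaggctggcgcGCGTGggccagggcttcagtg
Egln3 (chr12:54203825-54204124, minus strand): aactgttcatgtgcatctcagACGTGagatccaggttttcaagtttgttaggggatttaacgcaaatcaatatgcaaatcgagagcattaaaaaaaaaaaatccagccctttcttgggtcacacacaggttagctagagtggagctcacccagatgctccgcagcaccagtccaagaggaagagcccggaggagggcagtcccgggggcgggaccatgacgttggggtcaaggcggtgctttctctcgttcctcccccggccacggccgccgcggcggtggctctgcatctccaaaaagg
Ddit4 (chr10:59951721-59952020, minus strand): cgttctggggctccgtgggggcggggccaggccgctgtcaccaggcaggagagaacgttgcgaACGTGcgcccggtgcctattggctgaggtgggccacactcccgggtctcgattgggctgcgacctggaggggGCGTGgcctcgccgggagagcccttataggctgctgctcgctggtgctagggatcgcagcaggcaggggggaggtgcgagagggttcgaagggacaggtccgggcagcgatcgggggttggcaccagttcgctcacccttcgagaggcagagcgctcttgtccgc
Pfkp held 4 matches, Egln3 1 and Ddit4 2. The window of Tpi1 held 0, and of 2 entries for Vegfa one held 2 and the other 0. Ndrg1 had no entry in the table used here. At least 1 match stood in 43.4% of 27025 promoters, in 51.5% of the 13335 of measured genes and in 66.2% of the 225 split genes with a promoter entry, so a match is common.

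Genes of the two-cell-like state, a rare state of ES cultures that resembles the embryo after its first division, included 2 split genes among 14 measured, both higher. Zscan4c on chromosome 7, the defining zinc finger gene of that state, read 8.45, 8.65, 8.62 and 8.74 on the E14-mES arrays and 11, 10.37, 10.44 and 10.38 on the GFPoct4 arrays, against 6.84, 7.13, 6.81 and 7.04 on the sFB-protein-iPS arrays and 7.34, 7.75, 7.63 and 7.58 on the C57-mES arrays. Every GFPoct4 array lay above every E14-mES array, and these above both groups of the low pair. Tcstv3 on chromosome 13 averaged 7.88 ± 0.34 in E14-mES and 9.28 ± 0.17 in GFPoct4, against 6.65 ± 0.11 in sFB-protein-iPS and 6.72 ± 0.11 in C57-mES, with no sFB-protein-iPS array and 2 C57-mES arrays above background (at least 3.43-fold). AF067061 and Gm20767, adjacent split genes on chromosome 13, had a similar order. Their means were 8.3 and 7.32 in E14-mES and 10.05 and 8.82 in GFPoct4, against 6.83 and 6.21 in sFB-protein-iPS and 6.81 and 6.2 in C57-mES. Gm20767 was chosen after its values were seen. Tcstv1, Gm428 and Tmem92 of the list passed the fit as higher without being split, so that 5 of 14 passed as higher and 0 as lower. Related members of these families share sequence, and their probes can pick up each other's transcripts.

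Among receptors and ligands, Tdgf1, the Nodal co-receptor Cripto, had one of the largest differences. It read 10.65, 10.52, 11.07 and 10.78 on the E14-mES arrays and 10.59, 10.3, 10.93 and 10.92 on the GFPoct4 arrays, against 9.33, 9.04, 9.28 and 9.25 on the sFB-protein-iPS arrays and 7.23, 7.25, 7.23 and 7.75 on the C57-mES arrays. C57-mES was lowest, and sFB-protein-iPS lay between C57-mES and the high pair (5.36-fold between the pairs). Inhbb, which encodes an activin subunit, averaged 9.37 ± 0.11 in E14-mES and 9.65 ± 0.14 in GFPoct4, against 7.75 ± 0.12 in sFB-protein-iPS and 7 ± 0.17 in C57-mES (4.39-fold). Of 16 measured genes of the Nodal and activin pathway these 2 were split. Bmpr1a, a type I receptor for bone morphogenetic proteins, averaged 9.85 ± 0.4 in E14-mES and 9.86 ± 0.09 in GFPoct4, against 8.05 ± 0.05 in sFB-protein-iPS and 7.93 ± 0.21 in C57-mES (3.64-fold), but another probe of the gene ran the other way, as given with the probes. It was the 1 split gene of 17 measured in the BMP list. Jak1, the kinase that passes the LIF signal to STAT3, was at least 1.54-fold higher and reached no array above background in either group of the low pair, the 1 split gene of 18 in the LIF list.

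On the lower side, Nppb on chromosome 4, the precursor of brain natriuretic peptide, had the widest gap of all split genes. It read 7.12, 6.9, 7.04 and 6.73 on the E14-mES arrays and 7.35, 7.69, 7.83 and 7.75 on the GFPoct4 arrays, against 10.97, 10.91, 11.14 and 10.78 on the sFB-protein-iPS arrays and 10.51, 10.43, 10.48 and 10.45 on the C57-mES arrays. All 8 arrays of E14-mES and GFPoct4 lay far under the lowest C57-mES array, and the pair means differed 10.6-fold. Ccn1, a secreted matrix-associated protein of early growth responses, averaged 6.42 ± 0.24 in E14-mES and 7.72 ± 0.17 in GFPoct4, against 9.59 ± 0.1 in sFB-protein-iPS and 10.45 ± 0.14 in C57-mES (at least 6.92-fold), and no E14-mES array was above background. Wnt7b, a Wnt ligand, averaged 7.09 ± 0.17 in E14-mES and 6.64 ± 0.23 in GFPoct4, against 9.05 ± 0.14 in sFB-protein-iPS and 10.31 ± 0.06 in C57-mES (7-fold), the only split gene of 21 measured in the Wnt list. The GFPoct4 mean lay under the background levels of its arrays (6.72 to 6.78), which limits the fold. Another Wnt7b probe averaged 6.34 in E14-mES and 6.46 in GFPoct4, against 6.58 in sFB-protein-iPS and 7.68 in C57-mES. It was thus raised in C57-mES only. Fgfbp1, which releases fibroblast growth factors from the matrix, was 4.31-fold lower, and Lpar6, a receptor for lysophosphatidic acid, 3.82-fold lower in E14-mES and GFPoct4.

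The feedback genes of fibroblast growth factor and ERK signalling are switched on by that pathway and restrain it, and Spry4 and Phlda1 among them were lower in E14-mES and GFPoct4. Spry4, an inhibitor of receptor tyrosine kinase signalling, read 8.48, 8.4, 8.54 and 7.96 on the E14-mES arrays and 7.59, 7.83, 7.48 and 8.25 on the GFPoct4 arrays, against 10.74, 10.58, 10.5 and 10.72 on the sFB-protein-iPS arrays and 10.04, 10.16, 10.12 and 9.84 on the C57-mES arrays. The pairs did not overlap (4.83-fold). Phlda1, an ERK-induced gene, averaged 8.51 ± 0.25 in E14-mES and 9.56 ± 0.13 in GFPoct4, against 12.53 ± 0.03 in sFB-protein-iPS and 10.83 ± 0.1 in C57-mES (6.27-fold). Of 18 measured genes of this list, 2 were split as lower and 1, Ier3, as higher, and the median difference was -0.33, beside -0.01 for all genes. Ier3, an early response gene, averaged 12.14 ± 0.27 in E14-mES and 11.84 ± 0.03 in GFPoct4, against 10.77 ± 0.09 in sFB-protein-iPS and 10.62 ± 0.09 in C57-mES. Dusp6 differed by -0.88 between the pairs and the ligand gene Fgf4 by -0.39, and neither was split. The Spry2 probe was above background on 0 arrays of any group.

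Among 21 measured immediate early genes, which respond to growth signals and to handling of the cells within minutes, Klf6 was split as lower and Ier3 as higher. Klf6 averaged 10.71 ± 0.18 in E14-mES and 11.4 ± 0.08 in GFPoct4, against 12.62 ± 0.09 in sFB-protein-iPS and 12.5 ± 0.04 in C57-mES (2.85-fold). In the fit 5 passed as lower, Klf6, Fos, Egr1, Egr2 and Zfp36, and 1 as higher, and the median of the 21 was -0.48. Fos averaged 8.1 in E14-mES and 11.45 in GFPoct4, against 11.71 in sFB-protein-iPS and 10.91 in C57-mES, and Egr1 10.82 in E14-mES and 13.73 in GFPoct4, against 13.86 in sFB-protein-iPS and 13.53 in C57-mES. These 2 were thus low in E14-mES alone and failed the rule.

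**Figure D2:**
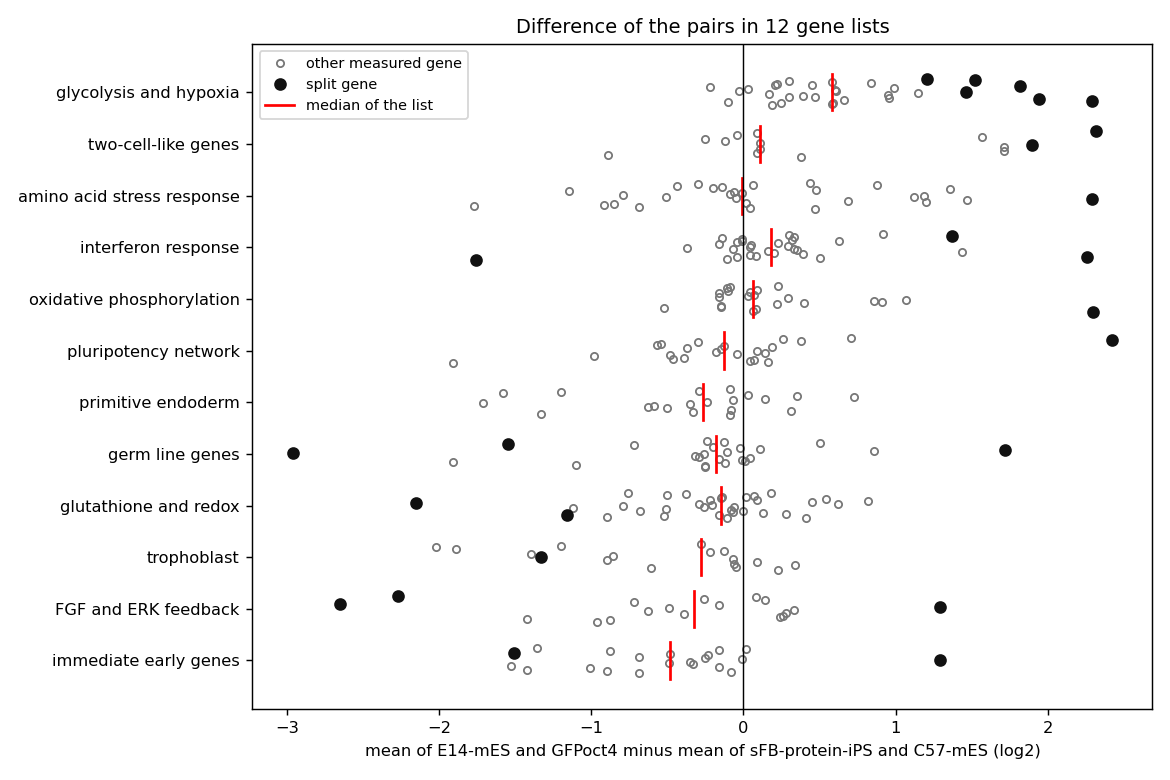
Difference between the mean of E14-mES and GFPoct4 and the mean of sFB-protein-iPS and C57-mES on the log2 scale for every measured gene of 12 gene lists, 1 row per list. Filled points are split genes, open points the other measured genes, and the red bar is the median of the list. The median is 0.58 for glycolysis and hypoxia, where all 6 split genes lie to the right of 0, and -0.33 for the FGF and ERK feedback genes.

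Slc30a1 on chromosome 1, the exporter that removes zinc from cells and is induced by it, was lower in E14-mES and GFPoct4. It read 7.8, 7.98, 7.99 and 8.29 on the E14-mES arrays and 8.42, 8.21, 8.32 and 8.05 on the GFPoct4 arrays, against 10.03, 10.27, 10.19 and 10.19 on the sFB-protein-iPS arrays and 10.31, 10.15, 10.12 and 9.97 on the C57-mES arrays. The 2 groups of each pair lay together, and the pairs were apart by 4.06-fold. Mt2 on chromosome 8, a metallothionein that binds zinc and copper, read 8.55, 8.34, 9 and 7.88 on the E14-mES arrays and 6.83, 7.87, 7.76 and 8.13 on the GFPoct4 arrays, against 10.73, 10.48, 10.43 and 10.36 on the sFB-protein-iPS arrays and 9.95, 9.77, 9.84 and 10.31 on the C57-mES arrays. It scattered widely in E14-mES and GFPoct4, and the pairs still did not overlap (4.56-fold). Slc39a10, a zinc importer, was just inside the threshold in the other direction (7.79 in E14-mES and 7.46 in GFPoct4, against 6.28 in sFB-protein-iPS and 6.46 in C57-mES). The related gene Mt1 was not split, averaging 15.4 in E14-mES and 14.83 in GFPoct4, against 15.57 in sFB-protein-iPS and 15.49 in C57-mES. Its raw intensity reached 83.1% to 88.6% of the brightest probe of the array in E14-mES and 19.8% to 66.1% in GFPoct4. The range was 82.4% to 90.6% in sFB-protein-iPS and 83.1% to 86.1% in C57-mES. In E14-mES, sFB-protein-iPS and C57-mES Mt1 thus lay near the top of the scale, where a difference may not show. GFPoct4 lay lower, with normalized array values from 13.89 to 15.19. Mt1 and Mt2 were chosen after their values were seen.

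The promoters of Slc30a1 and Mt2 are given from the same RefSeq table, because both genes are known targets of the metal-sensing factor MTF1. Capitals mark TGCACNC or TGCGCNC, the core of the metal response element, on either strand.
Slc30a1 (chr1:191906531-191906830, plus strand): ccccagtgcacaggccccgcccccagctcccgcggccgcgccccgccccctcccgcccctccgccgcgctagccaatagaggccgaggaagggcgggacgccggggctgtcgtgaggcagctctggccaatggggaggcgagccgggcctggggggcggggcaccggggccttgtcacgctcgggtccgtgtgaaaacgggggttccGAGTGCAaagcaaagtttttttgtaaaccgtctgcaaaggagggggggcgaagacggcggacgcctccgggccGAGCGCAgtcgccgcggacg
Mt2 (chr8:94172368-94172667, plus strand): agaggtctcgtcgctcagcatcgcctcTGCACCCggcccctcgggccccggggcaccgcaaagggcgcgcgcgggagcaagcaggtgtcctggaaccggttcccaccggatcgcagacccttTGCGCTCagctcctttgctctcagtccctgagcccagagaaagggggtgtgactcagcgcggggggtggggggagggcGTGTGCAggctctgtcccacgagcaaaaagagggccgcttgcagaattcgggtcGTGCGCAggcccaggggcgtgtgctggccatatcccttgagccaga
Mt2 held 4 matches and Slc30a1 2. Of the promoters of measured genes 30.7% held at least 1, 9.37% at least 2 and 0.667% at least 4. Of all promoters 25.5% held at least 1, and of those of split genes 38.7%.

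Of 34 measured genes of glutathione and redox defence 2 were split, both lower in E14-mES and GFPoct4. Hmox1, heme oxygenase, read 9.12, 9.02, 9.38 and 8.73 on the E14-mES arrays and 9.84, 9.6, 9.71 and 9.66 on the GFPoct4 arrays, against 12.13, 12.01, 12.11 and 12.01 on the sFB-protein-iPS arrays and 11, 10.96, 10.97 and 11.05 on the C57-mES arrays. The sFB-protein-iPS arrays were highest, C57-mES came next, and neither overlapped the low pair (4.43-fold). Gpx3, a secreted glutathione peroxidase, averaged 8.54 ± 0.29 in E14-mES and 8.62 ± 0.09 in GFPoct4, against 9.71 ± 0.01 in sFB-protein-iPS and 9.77 ± 0.14 in C57-mES, a 2.24-fold difference. Mafg, a partner of the redox factor Nrf2 that was chosen after its values were seen, averaged 9.59 in E14-mES and 9.83 in GFPoct4, against 11.91 in sFB-protein-iPS and 11.35 in C57-mES. In the cholesterol list Insig1, which holds back sterol synthesis, was the 1 split gene of 18 (8.04 in E14-mES and 7.96 in GFPoct4, against 9.18 in sFB-protein-iPS and 10.03 in C57-mES). Ndufaf4, an assembly factor of respiratory complex I, averaged 9.89 ± 0.3 in E14-mES and 9.81 ± 0.09 in GFPoct4, against 11.73 ± 0.06 in sFB-protein-iPS and 11.77 ± 0.09 in C57-mES (3.74-fold), with the groups of each pair close together.

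Taf1d, a subunit of the RNA polymerase I initiation complex, was 4.86-fold lower, and Taf15, an RNA-binding protein tied to RNA polymerase II, 3.61-fold lower in E14-mES and GFPoct4. Kmt5b, which methylates histone H4, averaged 8.38 ± 0.14 in E14-mES and 9 ± 0.13 in GFPoct4, against 11.26 ± 0.08 in sFB-protein-iPS and 10.69 ± 0.06 in C57-mES (4.86-fold). Zfp819, a zinc finger gene, averaged 8.44 ± 0.26 in E14-mES and 8.45 ± 0.1 in GFPoct4, against 10.31 ± 0.11 in sFB-protein-iPS and 10.41 ± 0.13 in C57-mES (3.76-fold). Of 22 measured genes of DNA methylation and Polycomb 1 was split, Rnf2, a Polycomb ubiquitin ligase, as higher (8.08 in E14-mES and 8.15 in GFPoct4, against 6.97 in sFB-protein-iPS and 6.74 in C57-mES).

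Genes known from the germ line and from epithelia were split in small numbers. Of 24 measured germ line genes 2 were lower and 1 higher. Rhox5 on chromosome X, a homeobox gene of germ and placental cells, read 9.1, 8.91, 9.02 and 8.29 on the E14-mES arrays and 9.8, 10.45, 10.55 and 10.6 on the GFPoct4 arrays, against 11.91, 11.64, 11.76 and 11.6 on the sFB-protein-iPS arrays and 13.44, 13.34, 13.33 and 13.41 on the C57-mES arrays. The 4 groups lay in separate ranges from E14-mES up to C57-mES (7.78-fold between the pairs). Tex19.1, which guards germ cells against retrotransposons, averaged 11.56 ± 0.39 in E14-mES and 11.6 ± 0.11 in GFPoct4, against 12.93 ± 0.06 in sFB-protein-iPS and 13.33 ± 0.1 in C57-mES. Stra8, a gene of entry into meiosis, was at least 2.28-fold higher, with no array of the low pair above background. Lor, a protein of the cornified skin envelope, averaged 6.59 ± 0.12 in E14-mES and 6.86 ± 0.15 in GFPoct4, against 10.29 ± 0.1 in sFB-protein-iPS and 8.9 ± 0.1 in C57-mES (at least 6.91-fold), and Sfn, the 14-3-3 sigma protein of epithelia, 7.75 ± 0.59 in E14-mES and 6.75 ± 0.11 in GFPoct4, against 10.21 ± 0.13 in sFB-protein-iPS and 9.52 ± 0.17 in C57-mES (6.14-fold). Summed intensity of 11 keratinocyte markers, Lor among them, was 1295 to 1792 in E14-mES and 1242 to 1924 in GFPoct4, against 2417 to 2971 in sFB-protein-iPS and 2210 to 2374 in C57-mES. Without Lor, a split gene itself, the sum of the other 10 was 1206 to 1693 in E14-mES and 1135 to 1797 in GFPoct4, against 1288 to 1672 in sFB-protein-iPS and 1749 to 1902 in C57-mES, so that the pairs overlapped. This second sum was added after the values were seen.

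Krt18, a keratin of simple epithelia, averaged 7.78 ± 0.08 in E14-mES and 7.38 ± 0.17 in GFPoct4, against 8.86 ± 0.05 in sFB-protein-iPS and 8.96 ± 0.14 in C57-mES, and its partner Krt8 missed the rule at a gap of -0.99. Of 22 measured genes of epithelial junctions and keratins Krt18 was lower and Tjp1, a tight junction scaffold, higher (8.04 in E14-mES and 8.1 in GFPoct4, against 7 in sFB-protein-iPS and 6.88 in C57-mES). Of 17 trophoblast genes only Krt18 was split, while 5 passed the fit as lower (Tead4, Krt8, Krt18, Rhox6 and Rhox9) and 0 as higher. Of 30 interferon genes Ifi27 (9.1 in E14-mES and 10.15 in GFPoct4, against 6.88 in sFB-protein-iPS and 7.85 in C57-mES) and Stat2 (8.11 in E14-mES and 7.6 in GFPoct4, against 6.48 in sFB-protein-iPS and 6.49 in C57-mES) were higher, and Bst2, which tethers budding viruses, was lower (8.95 in E14-mES and 8.23 in GFPoct4, against 10.38 in sFB-protein-iPS and 10.31 in C57-mES). The X-linked genes Ddx3x, an RNA helicase (2.58-fold), and Huwe1, a ubiquitin ligase (3.33-fold), were higher, 2 split genes among 17 of the X and Y list. Hprt, also on the X chromosome, passed the fit as lower at a difference of -1.99 but was not split. It averaged 6.85 in E14-mES and 8.95 in GFPoct4, against 6.53 in sFB-protein-iPS and 13.25 in C57-mES. Its difference thus came from C57-mES alone, and sFB-protein-iPS was the lowest group. Mmp14, a membrane-bound matrix protease, was the 1 split gene of 29 in the matrix list (2.6-fold higher).

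Many groups held no split gene. These were the 33 measured Hox genes, 20 ribosomal protein genes, 15 genes of the primitive streak and mesoderm, 17 primed epiblast and neural genes, 20 primitive endoderm genes, 24 imprinted genes, 24 cell cycle genes, 22 genes of p53 and CDK inhibitors, 17 of the unfolded protein and heat shock response, 19 of antigen presentation and 25 of the cytoskeleton. Many of these genes were dim, and above background on all arrays of at least 1 of the 4 groups were 11 of the 33 Hox genes, 5 of the 15 primitive streak and mesoderm genes, 8 of the 17 primed epiblast and neural genes and 16 of the 24 imprinted genes. The 24 cell cycle genes had a median difference of 0.36, and 1, Pcna, passed the fit. Of the 20 primitive endoderm genes 4 passed as lower (Gata6, Sox7, Sox17 and Amn) and 0 as higher. The amino acid stress response held 1 split gene of 29, Ddit4 again, and 6 passed as higher and 2 as lower. The list counts rest on the contrast that chose the split genes and mark none of these groups out from the others.

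The rule sets no limit on the difference within a pair, but a gap shrinks as that difference grows, so the shares of called split genes are a description. The differences themselves were tested across all genes. Of the 289 split genes 13 were called between E14-mES and GFPoct4 at an adjusted p under 0.05 and at least 2-fold, where 1.96% of all genes were called, and 3.11% of the 8267 genes above background on all 8 arrays of either pair. Of the 13, 2 were higher in E14-mES (0.759% of all genes were) and 11 lower (1.2% of all genes). Zscan4c was lower in E14-mES than in GFPoct4 (-1.93 ± 0.12, adjusted p = 8.01e-12, log2 difference ± SE, n = 4 against 4 arrays), as were AF067061 (-1.76 ± 0.14, adjusted p = 9.89e-10), Rhox5 (-1.52 ± 0.16, adjusted p = 5.24e-08) and Tcstv3 (-1.4 ± 0.12, adjusted p = 3.38e-09). The highest relative to GFPoct4 were Egln3 (1.03 ± 0.12, adjusted p = 2.52e-07) and Cbln1, a synaptic organizer gene (1.01 ± 0.09, adjusted p = 3.36e-09). Both lay at the edge of the 2-fold limit and lost the call under several settings, among them Egln3 without E14-mES array 4. The others called were Ifi27, Gm20767, Ccn1, Phlda1, Msc, Reep3 and Fabp3, all lower in E14-mES. Without E14-mES array 4 the count was 9 in place of 13.

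Between sFB-protein-iPS and C57-mES 11 of the 289 were called, where 4.47% of all genes were, and 7.68% of the 8267 detected ones. Of the 11, 7 were higher in sFB-protein-iPS (2.07% of all genes were) and 4 lower (2.4% of all genes). Plaur, the urokinase receptor, was higher in sFB-protein-iPS (2.02 ± 0.11, adjusted p = 1.14e-13), as were Tdgf1 (1.86 ± 0.14, adjusted p = 5.58e-11), Phlda1 (1.7 ± 0.12, adjusted p = 1.68e-11) and Jam2, a junctional adhesion gene (1.55 ± 0.13, adjusted p = 6.95e-10). Csrnp1, a nuclear protein gene, was lower (-2.05 ± 0.1, adjusted p = 1.42e-14), as were Rhox5 (-1.65 ± 0.16, adjusted p = 5.11e-09), Wnt7b (-1.26 ± 0.11, adjusted p = 8.62e-10) and Ddit4 (-1.11 ± 0.1, adjusted p = 1.17e-09). Mmrn2, Lor and Hmox1 were the remaining called genes, all higher in sFB-protein-iPS. Rhox5 and Phlda1 were called within both pairs.

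FVB-sFB was placed beside each split gene. For the 176 higher genes its mean lay at or above the lower mean of E14-mES and GFPoct4 in 28, between the pairs in 51, and at or below the higher mean of sFB-protein-iPS and C57-mES in 97. For the 113 lower genes it lay with E14-mES and GFPoct4 in 51, between the pairs in 40 and with sFB-protein-iPS and C57-mES in 22. Over both sets FVB-sFB was with E14-mES and GFPoct4 for 79 genes, between for 91 and with sFB-protein-iPS and C57-mES for 119. The sets differ in size, and in each the low pair was the side FVB-sFB shared most often. No FVB-sFB array was above background for 41 of the higher and 17 of the lower genes. All split genes lay above background in the high pair, so genes dim in FVB-sFB could hardly lie with that pair. The counts are thus a description. On a scale from 0 at the mean of the low pair to 1 at the mean of the high pair, its median position was 0 for the higher genes and 0.2 for the lower genes.

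**Figure D3:**
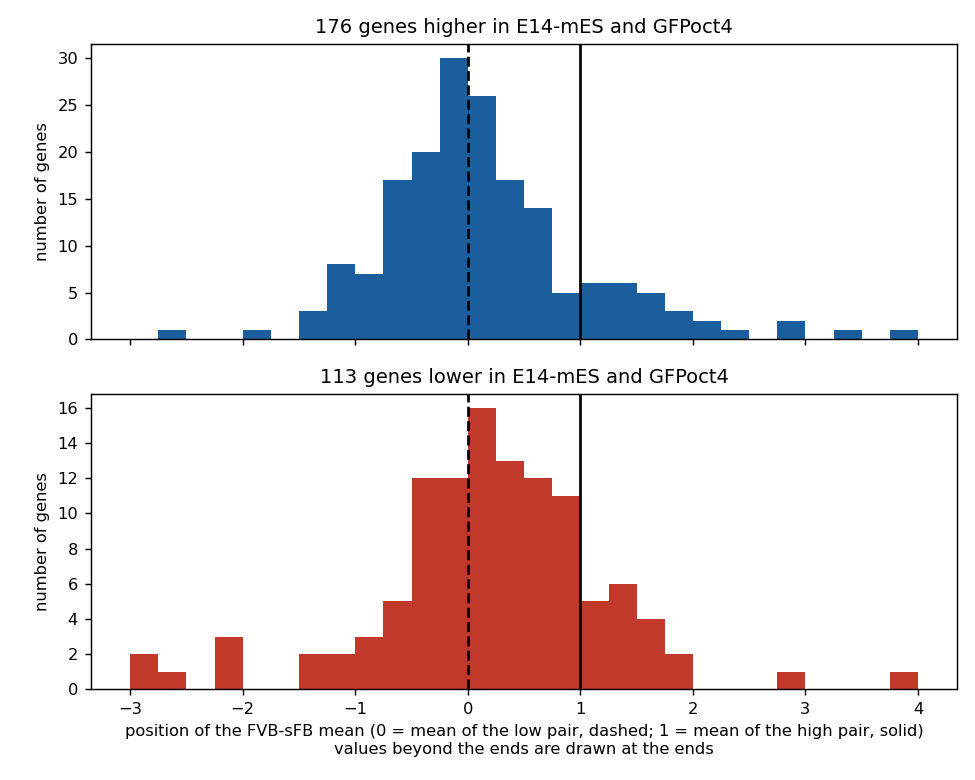
Position of the FVB-sFB mean between the pairs for the 176 higher genes (top) and the 113 lower genes (bottom), as a count of genes per bin, on a scale where 0 (dashed) is the mean of the low pair and 1 (solid) the mean of the high pair. At or below 0.5 lie 130 of the 176 and 72 of the 113 genes, the medians are 0 and 0.2, and a tail lies beyond 1.

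The contrast of the mean of the 4 pluripotent groups with FVB-sFB is not the one the rule used, and it was tested across all genes. That mean is built from the arrays the rule used. All split genes lay above background in their high pair, which can raise it. The shares of called split genes are thus a description. Of the split genes 150 were called (51.9%), where 22.5% of all genes were and 38.5% of the 8267 genes detected in a pair. Of the 176 higher genes 72 rose and 23 fell in the pluripotent mean relative to FVB-sFB, and of the 113 lower genes 36 rose and 19 fell. Over all genes 11.5% rose and 11% fell. All genes include those not detected in a pair, and shares by direction were not taken for the 8267 detected ones. Split genes dim in FVB-sFB, 41 higher and 17 lower ones, could hardly fall. The excess of rises is thus no result about the split genes. Tex19.1 had the largest increase (5.73 ± 0.1, adjusted p = 1.04e-24, log2 difference ± SE, n = 16 against 4 arrays), followed by Msc, a transcription factor gene (5.53 ± 0.07, adjusted p = 1.81e-27), Rhox5 (4.65 ± 0.12, adjusted p = 2.11e-21) and Fabp3, a fatty acid binding protein gene (4.41 ± 0.13, adjusted p = 1.19e-20). Among the genes that fell, Igfbp7, a secreted binder of insulin-like growth factors, was far higher in FVB-sFB (-6.38 ± 0.1, adjusted p = 1.04e-25), as were Ifi27 (-5.5 ± 0.13, adjusted p = 2.01e-22), Gpx3 (-4.79 ± 0.09, adjusted p = 2.39e-24) and Mmp14 (-3.9 ± 0.09, adjusted p = 2.07e-22). Igfbp7 averaged 8.94 in E14-mES and 9.28 in GFPoct4, against 7.41 in sFB-protein-iPS and 7.68 in C57-mES. In FVB-sFB it averaged 14.71, and Gpx3 13.95. Summed intensity of 8 macrophage and leukocyte markers was 606 to 756 in the 4 pluripotent groups, against 9152 to 10643 in FVB-sFB, and their part in these values was not tested. By contrast Ndufaf4 (0.04 ± 0.09, adjusted p = 0.7), Bmpr1a (0.06 ± 0.11, adjusted p = 0.692) and Jak1 (-0.01 ± 0.11, adjusted p = 0.96) were not called, with FVB-sFB between the pairs for all 3.

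Genes with more than 1 probe gave a second reading. Of the 289 genes 119 higher and 69 lower ones had a single probe. For 77 of the rest another probe lay above background in some group, 103 probes in all. Of the 103, 89 differed between the pairs in the direction of the brightest probe, 25 met the rule in that direction and 14 ran the other way, 1 of which (Rbm14) met the rule in the opposite direction. The second probe of Tfrc had a gap of 2.12. Agreement was mostly in direction and less in size. Over the 41 higher genes the median difference was 1.5 on the brightest probe and 0.53 on the others, and over the 36 lower genes it was -1.46 and -0.81. Differences of at least 0.5 in the opposite direction were seen in 3 higher genes, Rbm14 (1.29 against -1.42), Chp1 (1.65 against -0.65) and Bmpr1a (1.87 against -0.52), and in 2 lower genes, Insig1 (-1.6 against 0.75) and Tug1 (-1.47 against 0.64). The 2 probes of Rbm14 were both split, in opposite directions. Rbm14, Chp1 and Tug1 were chosen after their values were seen.

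**Figure D4:**
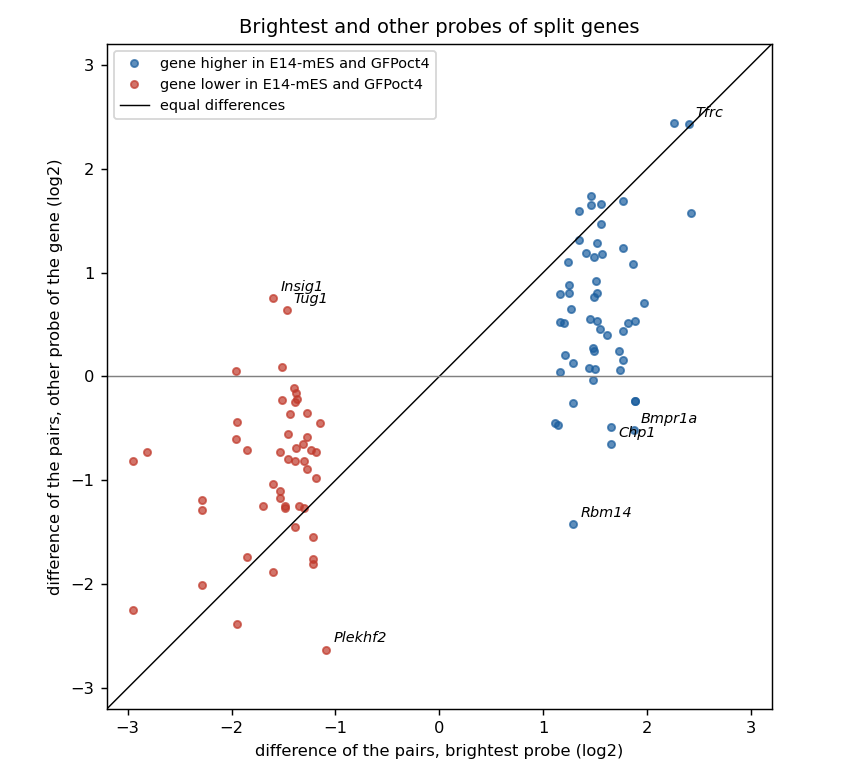
Difference of the pairs on the brightest probe of a split gene (horizontal) against that on each other detected probe of the same gene (vertical), both on the log2 scale, for 103 probes of 77 genes. Points lie on the side of their brightest probe for 89 probes, mostly nearer to 0 than the line of equal differences, and Rbm14 lies far on the opposite side.

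Averaging all probes of a gene in place of the brightest left 131 higher and 83 lower genes of the 289 split. The groups were apart in the opposite direction for 1 gene, Rbm14, at a gap of -0.05. The gap shrank to 0.51 for Robo4, 0.55 for Smc3, 0.53 for Bmpr1a, 0.41 for Pfkp, 0.55 for Egln3, 0.74 for Igfbp7 and 0 for Jam2, and to -0.86 for Sfn, -0.42 for Klf6 and -0.53 for Insig1. For Robo4, Smc3, Egln3, Igfbp7 and Sfn no other probe lay above background on all arrays of any pluripotent group. Averaging with such dim probes shrinks a gap by itself, so these genes had no second reading. Tfrc, with 2 probes, kept a gap of 2.07, while Stmn1, Aldh6a1, Atp5a1 and Nppb had a single probe each.

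The scale of the arrays set how many genes met the rule. With median centring in place of quantile normalization 313 genes were higher and 46 lower, so that 87.2% were higher, beside 60.9% in the values used here. In the deposited value table, where no array was scaled, the numbers were 344 and 29 (92.2% higher), and the median of all genes was 0.24 higher in E14-mES and GFPoct4. Cyclic loess gave 172 and 98, and leaving out the background correction 148 and 98. In all 4 of these scalings the pairs stayed apart in the same direction for 176 of 176 higher and 113 of 113 lower genes. The gap stayed at 1 or more in all 4 for 143 higher genes but only 28 lower genes. Nppb kept a gap of -2.72 with median centring and -2.72 in the value table, and Hmox1 -1.26 and -1.34. Wnt7b had -1.49 and -1.06, Mt2 -1.32 and -1.21, Insig1 -0.64 and -0.29, Gpx3 -0.68 and -0.34, and Krt18 -0.58 and -0.21. Stmn1 widened to 2.62 and 2.9. Among the genes of glycolysis and hypoxia Ddit4 had 1.54 and 1.43, Tpi1 1.1 and 1, and Vegfa 1.46 and 1.37.

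**Figure D5:**
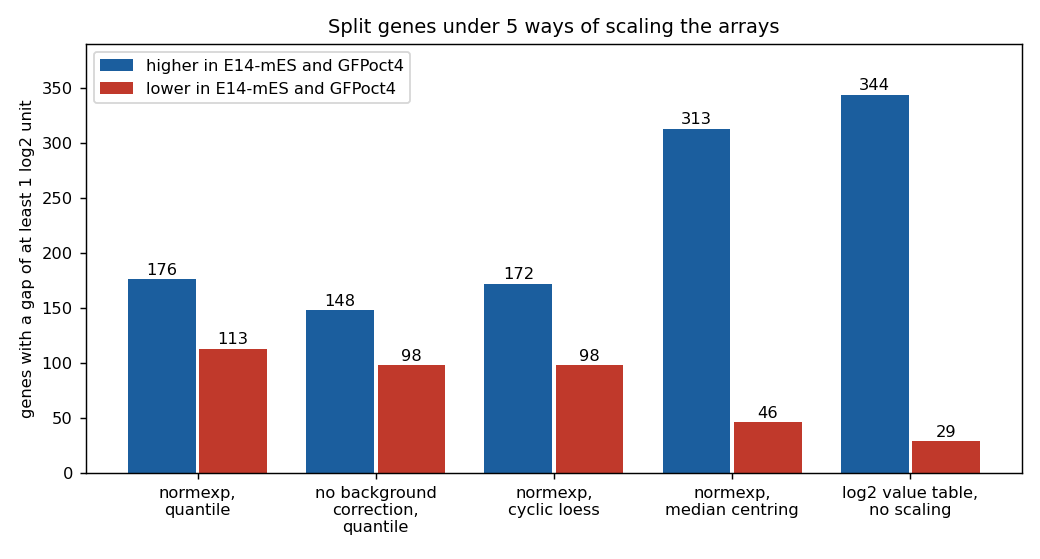
Number of genes with a gap of at least 1 log2 unit, higher (blue) and lower (red) in E14-mES and GFPoct4, under 5 ways of scaling the same arrays. The number of lower genes goes as far down as 29 in the unscaled value table, beside 344 higher genes, and is 113 beside 176 with quantile normalization.

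Split genes lay on many chromosomes of the mouse. Chromosome 12 held 9 higher and 0 lower genes of 486 measured (1.85% and 0%), Egln3, Aldh6a1, Ifi27 and Dld among them. Chromosome 6 held 10 and 1 of 917 (1.09% and 0.109%), and chromosome 11 held 9 and 15 of 1338 (0.673% and 1.12%). The shares over all genes were 1.06% higher and 0.681% lower. There were 10 pairs of neighbouring measured genes that were both split. In 4 both were higher (Napepld with Pmpcb, Egln3 with Sptssa, Gm20767 with AF067061, and Mmrn2 with Bmpr1a), and in the other 6 the directions differed, as for Klf6 with Pfkp and Vegfa with Mrps18a. In 0 were both lower. The gene order comes from a RefSeq table of GRCm38.p6, and no test of clustering was made.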

How the data were processed

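Gene expression was measured on mouse Illumina bead arrays in 20 samples. Per the labels' protocols the RNA was amplified and labelled with biotin. BeadStudio exported the data (per the submitters' processing notes), its version being not given in the sources used here. The authors deposited intensity on a linear scale and name no normalization. A second deposited table gives log2 values, which equal the log2 of those intensities to within 5e-09.

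Arrays were background-corrected with normexp (offset 50), quantile-normalized and taken to log2 with R 4.3.3 and limma 3.58.1. Of 25697 probes 23978 carried 1 gene symbol and 1719 none, and 23962 matched a RefSeq table of GRCm38.p6, used for names, chromosomes and gene order. The brightest probe stood for each of 4777 genes with several, which gave 16593 genes. Limma fitted all 5 groups in 1 model, with Benjamini-Hochberg adjustment over all genes, and a gene was called at an adjusted p under 0.05 and a log2 difference of at least 1. The number of arrays limits the precision. A fold given as a lower bound put dim values at the background level of their array wherever they fell under it. The procedure was tested on simulated data.

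The split genes and the 36 gene lists (861 entries, 728 measured) were chosen with earlier results of these data known. Named were the 14 largest gaps and the 3 genes on each side of the threshold per direction, up to 3 split genes of each list and the 4 largest called differences per direction of each tested contrast, without predicted or clone names among the largest gaps. Pou5f1, Nanog, Sox2, Klf4 and Myc were always named. Genes beyond these, among them Ldha, Car9, Bnip3, Pdk1, Dusp6, Spry2, Fgf4, Fos, Egr1, Hprt, Krt8 and others given only as names or pair differences, were chosen after their values were seen.

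Array numbers paired no samples across groups. In FVB-sFB, arrays 1 and 2 deviated together (0.521), as did 3 and 4 (0.386). Alternatives were other scalings, probe rules, thresholds, a replicate block and leaving out each array.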

Additional observations from a re-analysis of the deposited data

Results flagged for a closer look

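In 345 sets of 4 arrays (5 groups of 69 named genes) 25 held an array far from the other 3 by Dixon's test, where chance alone gives about 1 in 20. All values are normalized log2 intensities.

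E14-mES array 4, the array with the highest raw median, stood apart for 9 genes. It was high for Tfrc (14.86, the other 3 arrays 13.9 to 13.94), Pfkp (13.9, others 12.95 to 13.11), Slc23a2 (9.85), Wnt7b (7.34) and Cbln1 (11.04). It was low for Mrps18a (9.61, others 10.4 to 10.55), Tcstv3 (7.37, others 8.02 to 8.08), Ier3 (11.74) and Msc (9.72). Array 1 of E14-mES was low for Atp5a1 (11.45).

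Among the GFPoct4 arrays, array 1 was high for Slc52a3 (11.12) and Zscan4c (11, others 10.37 to 10.44) and low for Snrnp35 (8.11). Array 2 was low for Aldh6a1 (10.39) and high for Gpx3 (8.76), array 3 was low for Wnt7b (6.3), and array 4 was high for Bmpr1a (10) and low for Kmt5b (8.8).

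Among the sFB-protein-iPS arrays, array 1 was high for Nedd4 (8.97), array 3 low for Slc52a3 (8.59) and array 4 high for Cfap20dc (7.13). In C57-mES, array 1 was low for Cbln1 (8.5), array 2 low for Cfap20dc (6.62) and high for Fam83g (9.61), and array 4 high for Tdgf1 (7.75).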

How the results depend on the processing

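None of the 69 named genes and no count reversed direction under any alternative. Among all split genes Rbm14 did, with a gap of -0.05 with the mean of probes in place of 1.21. Median centring gave 313 higher and 46 lower split genes, and all 46 were among the 113 of the main setting. The value table gave 344 and 29, all 29 among the 113, and there FVB-sFB lay with the high pair for 85 split genes in place of 50. Without scaling, the genes called between sFB-protein-iPS and C57-mES were 1165 in place of 742, and among the split genes 21 in place of 11. A gap of 0.5 gave 727 higher and 554 lower genes, and a gap of 2 gave 5 and 2. Leaving out 1 array at a time gave 162 to 184 higher and 102 to 119 lower split genes, of which 160 to 176 and 99 to 113 were among the 289. FVB-sFB then lay with the high pair for 49 to 51 genes and with the low pair for 145 to 151. Called genes numbered 778 to 824 between the pairs, 3719 to 3744 against FVB-sFB (142 to 153 of the split genes), 322 to 339 between E14-mES and GFPoct4 (9 to 14) and 734 to 753 between sFB-protein-iPS and C57-mES (11 to 13). With the replicate number as a block the counts were 809, 3735 (150), 325 (13) and 742 (11), the same as without it. Each number occurs once in every group, so the block leaves the log2 differences unchanged by design. It could move a count only through the p-values. Deviations from the group mean correlated above 0.1 in 5 of 40 same-numbered array pairs across groups (lowest -0.33, highest 0.246), and for 6 of 20 arrays the best match carried the same number. The highest correlation across groups, 0.459, joined E14-mES array 4 and GFPoct4 array 1, whose numbers differ. The numbers thus do not mark pairs. Without FVB-sFB arrays 3 and 4, 136 split genes were called against FVB-sFB. For E14-mES minus GFPoct4 Egln3 had 0.67 with the mean of probes, 0.98 without E14-mES array 4 and 0.96 without GFPoct4 array 2, and Cbln1 lay at 0.95 to 1 in 6 settings. Of 69 named genes the gap stayed at 1 or more in 61 without background correction, 60 with median centring, 63 with cyclic loess, 55 in the value table, 66 with quantile normalization over 16 arrays and 57 with the mean of probes. The cause of these changes was not tested. Probes near background in the low pair limit the folds.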

Other observations

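Further split genes lay outside the named ones and were chosen after their values were seen, so their values are given as a description. Among the higher genes, Kif18a, a kinesin that aligns chromosomes, averaged 9.97 in E14-mES and 9.98 in GFPoct4, against 7.98 in sFB-protein-iPS and 8.44 in C57-mES, and Cenph, a part of the kinetochore, 9.59 in E14-mES and 10.06 in GFPoct4, against 8.58 in sFB-protein-iPS and 8.24 in C57-mES. Ube2t, an enzyme of DNA crosslink repair, averaged 9.09 in E14-mES and 8.92 in GFPoct4, against 7.19 in sFB-protein-iPS and 7.07 in C57-mES, and Rev3l, a subunit of a DNA polymerase that copies past lesions, 8.57 in E14-mES and 8.43 in GFPoct4, against 7.23 in sFB-protein-iPS and 7.08 in C57-mES. Brca1 was at least 1.73-fold higher, with no array of the low pair above background. The nuclear import genes Kpnb1 and Kpna3 were 3.47-fold and 3.61-fold higher, and Nampt, an enzyme of NAD synthesis, 3.62-fold higher. In FVB-sFB Kif18a averaged 6.38, Cenph 6.33 and Ube2t 6.4.

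On the lower side, Edn1, the vasoconstrictor peptide gene endothelin 1, averaged 6.73 in E14-mES and 7.55 in GFPoct4, against 9.66 in sFB-protein-iPS and 9.05 in C57-mES, and Pdgfa, a growth factor gene, 11.24 in E14-mES and 10.95 in GFPoct4, against 13.02 in sFB-protein-iPS and 12.59 in C57-mES. Sfpq and Ddx5, which act in RNA processing, were 2.7-fold and 2.83-fold lower in E14-mES and GFPoct4, and Cpsf6, a factor of mRNA 3' end formation, 2.71-fold lower. Zfp296, a zinc finger gene known from pluripotent cells, averaged 10.4 in E14-mES and 10.69 in GFPoct4, against 12.16 in sFB-protein-iPS and 12.33 in C57-mES, and 7.12 in FVB-sFB. Nab2, a corepressor of the Egr factors, averaged 6.98 in E14-mES and 6.9 in GFPoct4, against 8.83 in sFB-protein-iPS and 8 in C57-mES, and Dusp2, a phosphatase of ERK, 6.58 in E14-mES and 6.58 in GFPoct4, against 7.94 in sFB-protein-iPS and 7.84 in C57-mES, with no array of E14-mES or GFPoct4 above background for Dusp2.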
